A study of Malus domestica with 34 samples.

Results

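The leaf libraries taken in the year after a winter were set against those taken late in the season before, in apple seedlings (Malus domestica) of 'Golden Delicious' double haploid 18, abbreviated GDDH18, a line whose chromosome copies are identical. They were found by their labels and make up 12 of the 34 libraries: 6 from the third sampling and 6 from the next year, with 3 well-watered and 3 drought-cycled libraries in each. All plants were grown from seed in a greenhouse, sown in 3 blocks a week apart that serve as the biological replicates, and were 12 weeks old when the regimes began. The 64 well-watered plants were kept near 80% soil water content throughout, and the 61 drought-cycled plants had repeated droughts of 3 weeks at 45%, each followed by 3 rewatered weeks. The third sampling followed the third drought period. The next-year sampling followed a winter and came before any new stress, so in the drought-cycled plants the comparison also spans the release from drought. The sources used here do not give the number of plants pooled for each library.

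Apple is a deciduous tree. In such trees leaves are shed in autumn, buds stay dormant through the cold, and the leaves of a new year are organs grown anew from those buds. A leaf late in its season and a leaf of the next year therefore usually differ in organ age as well as in year. Here plant age, leaf age, season, year and any difference in handling between the sampling times cannot be told apart from winter itself. In bulk tissue, fewer cells of a type and less RNA per cell cannot be told apart either.

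The third-sampling leaf libraries held 25974815 to 46584464 counts and the next-year ones 32394824 to 68239819. Each of the 12 resembled the other leaf libraries (r = 0.88 to 0.988 across genes) more than any root library (r = 0.544 to 0.688), as its tissue label says. The well-watered third-sampling library of block 2 stands apart, with 39.12% of its counts in its 100 most abundant genes against 18.47% to 21.44% in the other third-sampling leaves. Both third-sampling libraries of block 3 also stand apart from the remaining 4, as described with the blocks. Main counts are given with and without these libraries. The gene identifiers of the table could not be matched to names, so genes are described by level, direction and behaviour across libraries, and their functions are not given.

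The leaf transcriptome differed widely between the samplings. Of 31755 genes tested, 13410 (42.2%) were called at an adjusted p under 0.05 by edgeR's quasi-likelihood test with regime as a term, of which 6359 (20.0%) rose and 7051 (22.2%) fell into the next year. The median gene that rose did so 1.52-fold and the median gene that fell did so 1.94-fold. With genes at 0 in a sampling set to a bound, the median log2 changes were 0.61 and -0.95. Changes of at least 2-fold were made by 1157 genes that rose (3.64% of those tested) and 3366 that fell (10.6%), and changes of at least 4-fold by 90 and 1207. The larger falls thus far outnumbered the larger rises in total. The excess at 4-fold differed between regimes. In well-watered plants 77 of the 31755 genes rose and 1192 fell at least 4-fold, and in drought-cycled plants 101 and 373. Of the same tested genes, 1181 rose and 3123 fell at least 2-fold in the pooled fit without the well-watered third-sampling library of block 2. For changes of at least 2-fold, this excess lay among scarcer genes, as given with the levels. Without the well-watered third-sampling library of block 2 the calls were 5977 up and 6657 down. Without it and both third-sampling libraries of block 3 they were 5917 and 6281.

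The balance between rises and falls depends on the scaling. These values use TMM, which takes most genes as unchanged, and under it the median change over all genes was -0.04 on the log2 scale. With libraries scaled by their total counts, that median was -0.27, and 2644 genes rose while 10497 fell. No gene called under both scalings had opposite directions. Changes are therefore relative to the bulk of genes, and no absolute amount of RNA was measured.

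**Figure D1:**
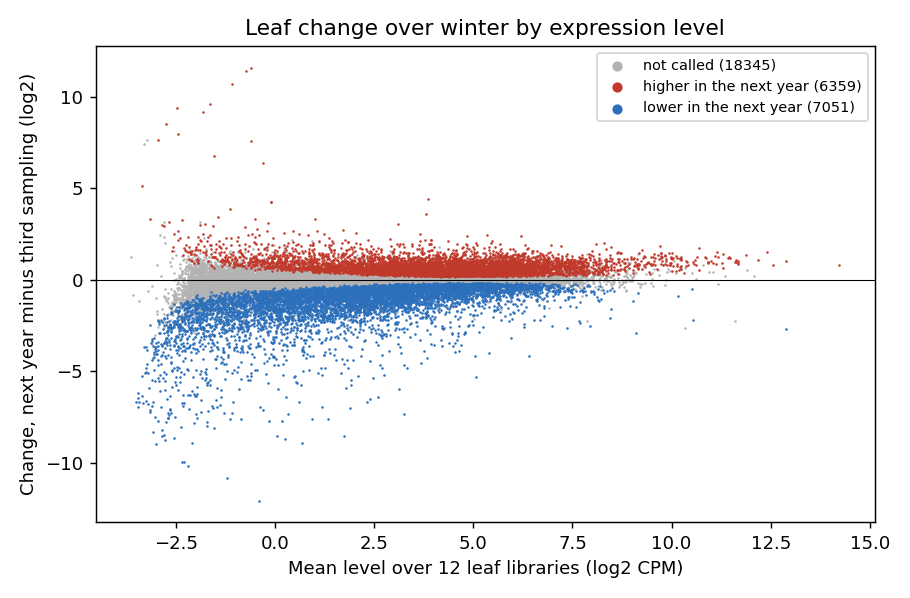
Log2 change from the third sampling to the next year (vertical) against the mean level over the 12 leaf libraries in log2 CPM (horizontal), 1 point per tested gene. The 6359 genes that rose are in red and the 7051 that fell in blue; falls reach larger sizes and lie more among scarce genes, rises more among abundant ones.

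CPM, counts scaled to a common library size, is the level used throughout. Rises were most frequent among abundant genes and falls among scarce ones. Among the 990 genes with a mean above 7 log2 CPM, 53.4% rose and 10.1% fell. Among the 14876 genes between 3 and 7 the shares were 28% and 17.3%, and among the 10381 genes between 0 and 3 they were 13.1% and 26.6%. Among the 5508 genes below 0 log2 CPM, 5.72% rose and 29.3% fell. Below 0 log2 CPM, 210 genes rose at least 2-fold and 1425 fell, and between 0 and 3 the counts were 313 and 1430. Between 3 and 7 they were 493 and 491, and above 7 they were 141 and 20. The excess of falls of at least 2-fold thus lay below 3 log2 CPM. The split in each class is subject to the scaling described above.

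Direction was the same in nearly every replicate for most of these genes. For each gene, 6 pairs can be formed of the third-sampling and next-year library of the same block and regime. All 6 pairs agreed in direction for 5638 of the 6359 genes that rose (88.7%) and for 5123 of the 7051 that fell (72.7%). Over all tested genes, the 6 next-year libraries lay entirely above the 6 third-sampling ones for 3834 genes (12.1%) and entirely below for 2991 (9.42%), and 3803 and 2978 of these were among the calls. The calls and these pairs rest on the same libraries.

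The genes that rose came to hold most of the leaf's counts. Their share of all counts at the third sampling ran from 26.2% through a median of 38.1% to 41.4%, and in the next year from 52.2% through 54.6% to 56.3%. The samplings did not overlap in this share, and the lowest value was that of the well-watered library of block 2. In well-watered plants the mean share went from 34.2% ± 6.96 to 54.9% ± 1.22, and in drought-cycled plants from 38.7% ± 3.24 to 54.4% ± 2.07 (SD, n = 3 each). The genes that fell took 23.2% ± 8.94 of counts in well-watered and 17.6% ± 3.07 in drought-cycled leaves at the third sampling, and 8.16% ± 0.421 and 8.48% ± 0.805 in the next year. Since the genes were chosen on these libraries, the shares are descriptions without a test. Without the library of block 2, the well-watered third-sampling leaves had mean shares of 38.1% for genes that rose and 18.1% for genes that fell (n = 2).

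Fewer genes were detected in the next year. At the third sampling, 26353 to 27202 genes reached 1 CPM, and in the next year 24883 to 25675. The groups did not overlap, and the means of 26888 ± 304 and 25424 ± 301 (SD, n = 6 each) gave a difference of -1464 genes (two-sided exact permutation test, p = 0.00216, as small as 924 arrangements can give). This test, like those on the 100 most abundant genes, shuffles libraries freely and ignores their pairing by block and regime. Shuffling within those pairs could not give so small a p. CPM here is relative to each library's total counts, so a larger share held by abundant genes lowers the rest. The share of the 100 most abundant genes was 23.08% ± 7.95 and 25.98% ± 1.48, a difference of 2.90 percentage points that did not exceed the spread (exact two-sided permutation p = 0.461). That outcome rests on the well-watered third-sampling library of block 2, at 39.12%. Without it the third sampling was at 19.87% ± 1.36 (SD, n = 5), 18.47% to 21.44%, below every next-year library (24.1% to 28.53%; exact two-sided permutation p = 0.00216). The difference in genes at 1 CPM was -1571 without it.

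**Figure D2:**
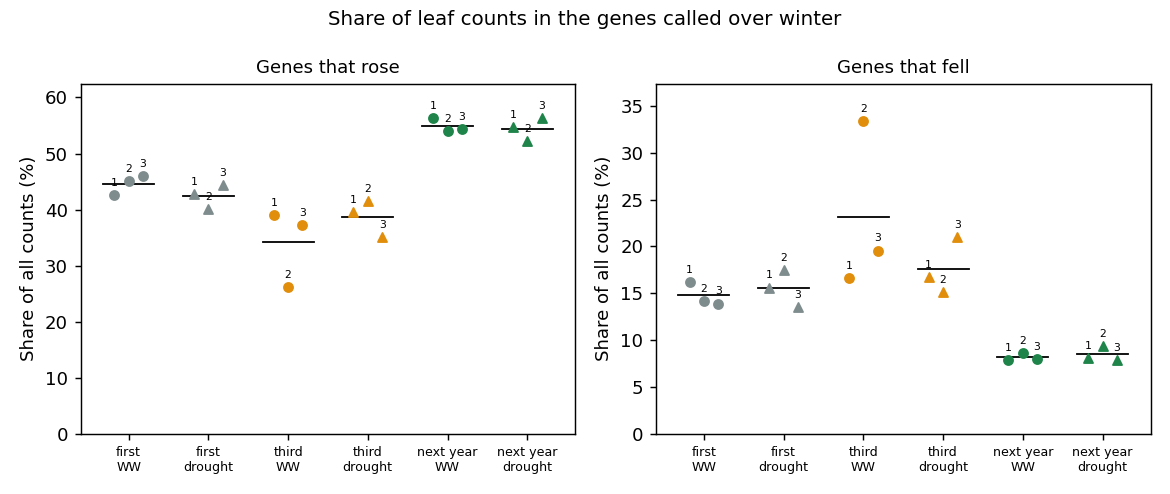
Share of all counts, in percent, held by the genes that rose (left) and fell (right) into the next year, in each of the 18 leaf libraries; circles are well-watered (WW) and triangles drought libraries, digits are sowing blocks and bars are means of 3. The third sampling and next year chose the genes, while the first sampling did not enter that choice; its shares for the genes that rose, 40.1% to 46%, lie between the median of the third sampling and the lowest next-year value.

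The first sampling, taken after the first drought period, shows where the genes stood earlier in the same season, in 6 libraries that did not enter the comparison. The genes that rose held 44.6% ± 1.79 of counts in well-watered and 42.5% ± 2.18 in drought leaves there, and the genes that fell held 14.8% ± 1.27 and 15.5% ± 2.01 (SD, n = 3 each). Among the 1157 genes that rose at least 2-fold, the median level in well-watered plants was 3.14 log2 CPM at the first sampling, 2.78 at the third and 4.10 in the next year. In drought-cycled plants these levels were 3.00, 2.78 and 4.17. Among the 3366 genes that fell at least 2-fold, the median levels were 1.10, 1.45 and -0.45 in well-watered and 1.10, 1.12 and -0.31 in drought-cycled plants. For both of these groups of genes, changed at least 2-fold, the median level at the first sampling lay nearer to that of the third.

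Taken gene by gene, the first sampling was nearer to the third than to the next year for 61.5% (well-watered) and 66% (drought-cycled) of the genes that rose at least 2-fold, and for 71.8% and 69.3% of those that fell. The next-year level lay beyond that of the first sampling, in the direction of the change, for 96% and 93.5% of the genes that rose and for 90.4% and 82.7% of those that fell. As the genes were chosen for a large distance between the third sampling and the next year, some such pattern follows from the choice. Over all 6359 genes that rose, 54.7% (well-watered) and 60.8% (drought-cycled) were nearer to the third at the first sampling. For all 7051 that fell these shares were 70.4% and 67.4%. A per-library summary, the mean log2 CPM of all genes that rose minus that of all genes that fell, ran from 1.32 to 1.83 at the first sampling, from 0.961 to 1.56 at the third and from 2.80 to 3.14 in the next year.

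No difference between the regimes in the change over winter was detected with 3 libraries a group. No gene was called for a difference in change between the regimes (0% of 31755). Before adjustment, 442 genes (1.39%) had a p under 0.05 in that test, a smaller share than the threshold alone would give with no effect. The corresponding counts by DESeq2 were 0 called and 557 before adjustment. The median standard error of the difference was 0.34 on the log2 scale, so modest differences would not have been detected. No gene was called for regime beside sampling either (0%). Before adjustment, 689 genes (2.17%) were under 0.05 by edgeR, again a smaller share than the threshold, and DESeq2 gave 0 calls and 783 before adjustment. These fits hold no term for the sowing block. With it, edgeR called 0 genes in both tests, with 577 for the difference in change and 1010 for regime before adjustment. A single gene was called for the difference in change without the drought third-sampling library of block 3, and 1 without both third-sampling libraries of that block.

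Within the regimes, which share no library, 6870 genes (21.6%) were called in well-watered plants, 3316 up (10.4%) and 3554 down (11.2%). In drought-cycled plants 4677 (14.7%) were called, 2601 up (8.19%) and 2076 down (6.54%). Both lists held 3755 genes in the same direction, 2135 up and 1620 down, and 0 in opposite directions. That is 54.7% of the well-watered and 80.3% of the drought list. Of the genes called in either regime, 99.6% had the same sign in the other. Across all tested genes the changes in the regimes correlated with r = 0.854, a description over genes, which are not independent, from a fit with a common spread.

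The counts within a regime depend on single libraries, so their sizes are no measure of a difference between regimes. The well-watered count was 4210 without the third-sampling library of block 2, and 2881, 3939 and 3539 without the next-year libraries of blocks 1, 2 and 3. The drought count was 2925 and 2937 without the third-sampling libraries of blocks 1 and 3, 1817 and 1402 without the next-year libraries of blocks 1 and 3, and 1724 without all of block 3. DESeq2 called 7240 genes in the drought arm.

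**Figure D3:**
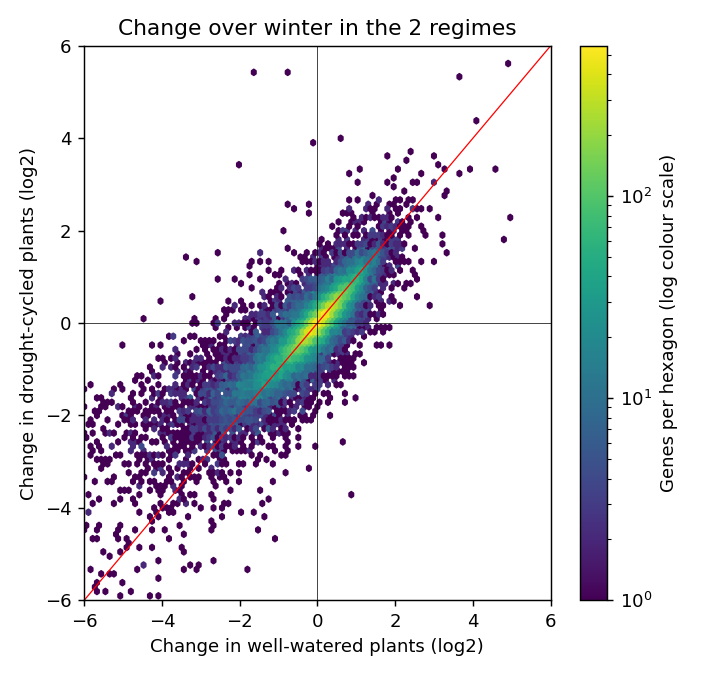
Log2 change from the third sampling to the next year in well-watered (horizontal) and drought-cycled plants (vertical); colour gives the number of genes per hexagon on a log scale and the red line marks equal change. Of the 31755 genes, 228 lie beyond the axes, and the others lie along the line (r = 0.854 over all genes), with a wider cloud among those that fell.

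Next-year leaves were far more alike than third-sampling leaves. Any pair of next-year libraries correlated with r = 0.973 to 0.988 across genes. At the third sampling, the pairs of the same block and different regime reached 0.952, 0.970 and 0.985, and pairs from different blocks 0.911 to 0.973. The biological coefficient of variation, edgeR's common estimate of the spread between replicates, was 35.5% at the third sampling and 18.8% in the next year. It was 23.4% at the third sampling without block 3, and 36.1% without the well-watered library of block 2. The larger part of that difference in spread thus goes with block 3. Individual genes varied more at the third sampling in 72% of cases.

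**Figure D4:**
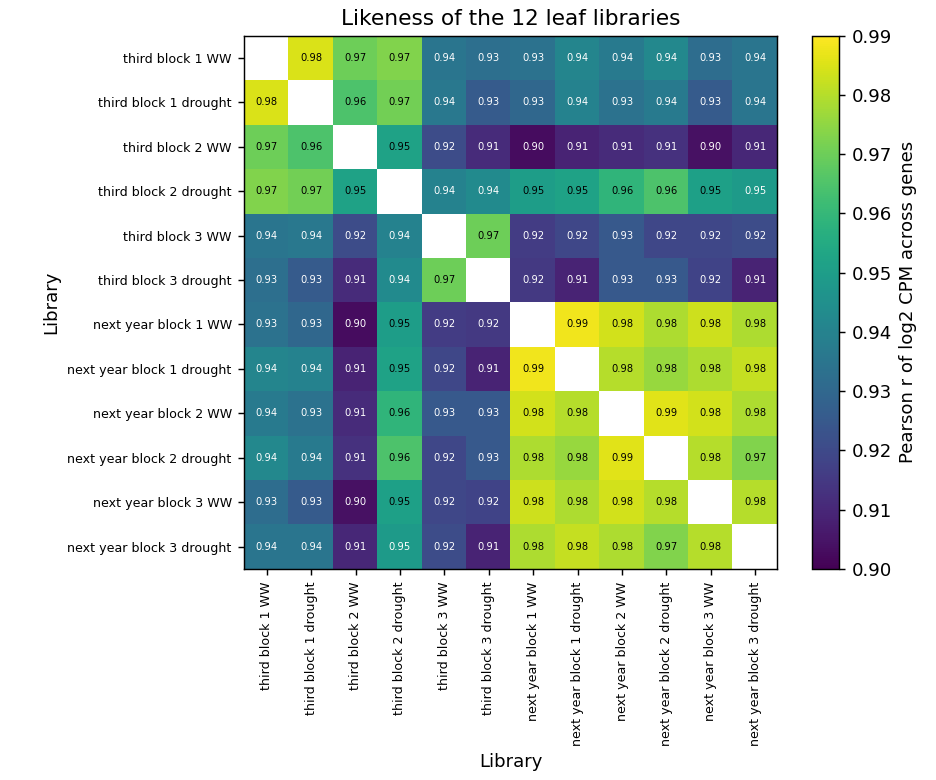
Pearson correlation of log2 CPM across genes for each pair of the 12 leaf libraries, ordered by sampling, sowing block and regime. The next-year libraries form a uniform square at 0.973 to 0.988, the third-sampling libraries of block 3 pair with each other more than with other blocks, and the drought library of block 2 is the third-sampling library most like the next year.

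The size of the change differed between sowing blocks for 2553 genes (8.04%), by a test of the difference between blocks with 7865 genes at an unadjusted p under 0.05. In that test, the well-watered and drought libraries of a block and sampling stand in as replicates of one another, beside a common regime term. Its spread is thus not one between replicates of the same block and regime. Block 3 was the block farthest from the other 2 for 2201 of them, block 2 for 225 and block 1 for 127. Of the 2553, 1236 were also among the pooled calls, beside 13410 of all 31755 tested genes (42.2%). DESeq2 called 4022. The count was 1506, 1604, 4030 and 1370 without the third-sampling libraries well-watered block 1 and drought blocks 1, 2 and 3. Without the next-year libraries of blocks 1, 2 and 3 it was 1383, 1318 and 1066 in well-watered and 1431, 1320 and 843 in drought-cycled plants.

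Within single blocks the pooled calls had median changes in their own direction, which follows in part from their choice on these same libraries. Block 1 gave 8876 calls (28.0%; 4576 up, 4300 down), block 2 gave 6248 (19.7%; 3424 and 2824) and block 3 gave 12290 (38.7%; 6418 and 5872), each from 4 libraries with a spread shared over blocks. These calls also take the well-watered and drought libraries of a block as replicates of one another. A set of 3357 of the 31755 tested genes was called in the same direction in all 3 blocks. The pooled genes that rose had median log2 changes of 0.59, 0.51 and 0.69 in blocks 1, 2 and 3, and those that fell had -0.82, -0.74 and -0.96.

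A set of 58 genes was at least 8-fold higher in both third-sampling leaf libraries of block 3 than in the other 4. The set was chosen by that contrast after the data were seen, so its levels there are a description; blocks 1 and 2 had 0 such genes at that sampling. These genes held 1.60% of counts in the well-watered and 1.69% in the drought library of block 3, and 0.0542% to 0.0645% in the other third-sampling leaves. In next-year leaves they held 0.0205% to 0.0474%. Of the 58, 52 were among the genes called as falling into the next year (22.2% of all tested genes fell), a call that rests in part on the same high values.

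Libraries that had no part in choosing the 58 genes also differed. In roots of the third sampling the set held 1.84% of counts in well-watered and 1.70% in drought plants of block 3, against 0.139%, 0.185%, 0.223% and 0.588% in blocks 1 and 2. The roots of block 3 were thus the highest, in both regimes, as the leaves were. In leaves of the first sampling the order was another one. There the set held 0.611%, 0.178% and 0.0461% in well-watered blocks 1, 2 and 3, and 0.449%, 1.36% and 0.0748% in drought blocks 1, 2 and 3, with block 3 lowest in each regime. What set block 3 apart was not tested.

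A different set of 44 genes was at least 8-fold higher in the well-watered third-sampling library of block 2 than in each of the other 5. These genes took 26.5% of that library's counts, 1.34% to 3.24% in the other third-sampling leaves and 0.363% to 1.28% in next-year leaves. In leaves of the first sampling they held 0.836% to 1.35%. Of the 44, 39 were called as falling, a call that again rests in part on the values that chose them (22.2% of all tested genes fell). Pooled calls changed little without this library, as given above.

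For the genes named here, the rule took in each direction the gene with the largest log2 change and the gene with the largest difference in mean CPM, among genes with a mean of at least 1 log2 CPM whose samplings do not overlap and whose call holds without the well-watered library of block 2. That they do not overlap is thus by choice. Levels are CPM scaled by TMM over all 34 libraries. The letters MD and 2 digits that open an identifier name the chromosome in the apple gene nomenclature.

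MD10G1281800 had the largest rise among the genes that meet this rule. At the third sampling it was at 2.99, 10.8 and 6.34 CPM in well-watered blocks 1, 2 and 3 and at 2.75, 3.62 and 0.179 CPM in drought blocks 1, 2 and 3. In the next year it was at 75.2, 99.6 and 86.9 CPM and at 73.5, 73.0 and 126 CPM. The gene thus went from scarce to well expressed in every block of both regimes. The log2 change was 4.44 (SE 0.57, edgeR adjusted p = 0.000187), or 21.7-fold. At the first sampling the leaf level was 0.0301 to 4.14 CPM, as low as at the third. In roots it was at 0 in all libraries of the first and the third sampling and at most 0.0313 CPM in the next year.

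MD17G1244400 made the largest gain in mean CPM among the genes that meet this rule. It stood at 14180, 11500 and 18600 CPM in well-watered and 16100, 17200 and 16700 CPM in drought blocks 1, 2 and 3 at the third sampling, and at 29000, 31400 and 26800 CPM and 23500, 26940 and 31400 CPM in the next year. Its log2 change was 0.78 (SE 0.15, edgeR adjusted p = 0.00165), or 1.72-fold. At the first sampling it was at 26000 ± 4010 CPM with full watering and at 19000 ± 3230 CPM in drought (SD over 3 libraries in both). The next-year libraries overlapped with these well-watered leaves of the season before. In roots the gene was at most 23.3 CPM.

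MD01G1144400 had the largest fall among the genes that meet the rule, and its size came from block 3. It belongs to the set of 58, as does the next gene. At the third sampling it was at 1.76, 2.15 and 764 CPM in well-watered and 2.18, 4.36 and 831 CPM in drought blocks 1, 2 and 3. In the next year it was at 0.456 to 1.07 CPM in every leaf library. Leaves of the first sampling also varied widely, from 1.60 CPM in drought block 3 to 466 CPM in drought block 2. Roots ran from 10.7 CPM in the next year to 908 CPM at the third sampling. The pooled log2 change was -8.57 (SE 2.0, edgeR adjusted p = 0.00565), and it was -4.24 with the sowing block as a term (adjusted p = 0.0408). Without both third-sampling libraries of block 3 it was -1.84 (edgeR adjusted p = 0.000584). The call was lost without the well-watered library of block 3 alone (adjusted p = 0.0669). Within blocks 1, 2 and 3 the log2 changes were -1.72, -2.18 and -9.86, and they differed between blocks (edgeR adjusted p = 0.000115). That test takes the regimes of a block as replicates of one another.

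MD01G1126500 had the largest loss in mean CPM among the genes that fell and meet the rule. It was at 91.6, 117 and 1600 CPM in well-watered and 125, 84.3 and 1550 CPM in drought blocks 1, 2 and 3 at the third sampling. In the next year it was at 17.8, 40.5 and 47.5 CPM and at 17.9, 37.2 and 50.6 CPM. Block 3 was again the high one in both regimes. That the other blocks also lay above every next-year leaf library follows from the rule. The log2 change was -4.15 (SE 0.93, edgeR adjusted p = 0.0046), and -1.63 without both third-sampling libraries of block 3 (adjusted p = 0.0039). At the first sampling it ran from 58.6 CPM in well-watered block 3 to 3070 CPM in drought block 2.

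Within single regimes, MD10G1281800 rose in both (edgeR adjusted p = 0.00688 in well-watered, 0.00432 in drought). MD17G1244400 passed in well-watered plants only (adjusted p = 0.0157 and 0.0626). Neither of the genes that fell passed in a single regime (adjusted p = 0.0524 to 0.0713). The difference between the regimes had an adjusted p = 1 for each of the 4.

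**Figure D5:**
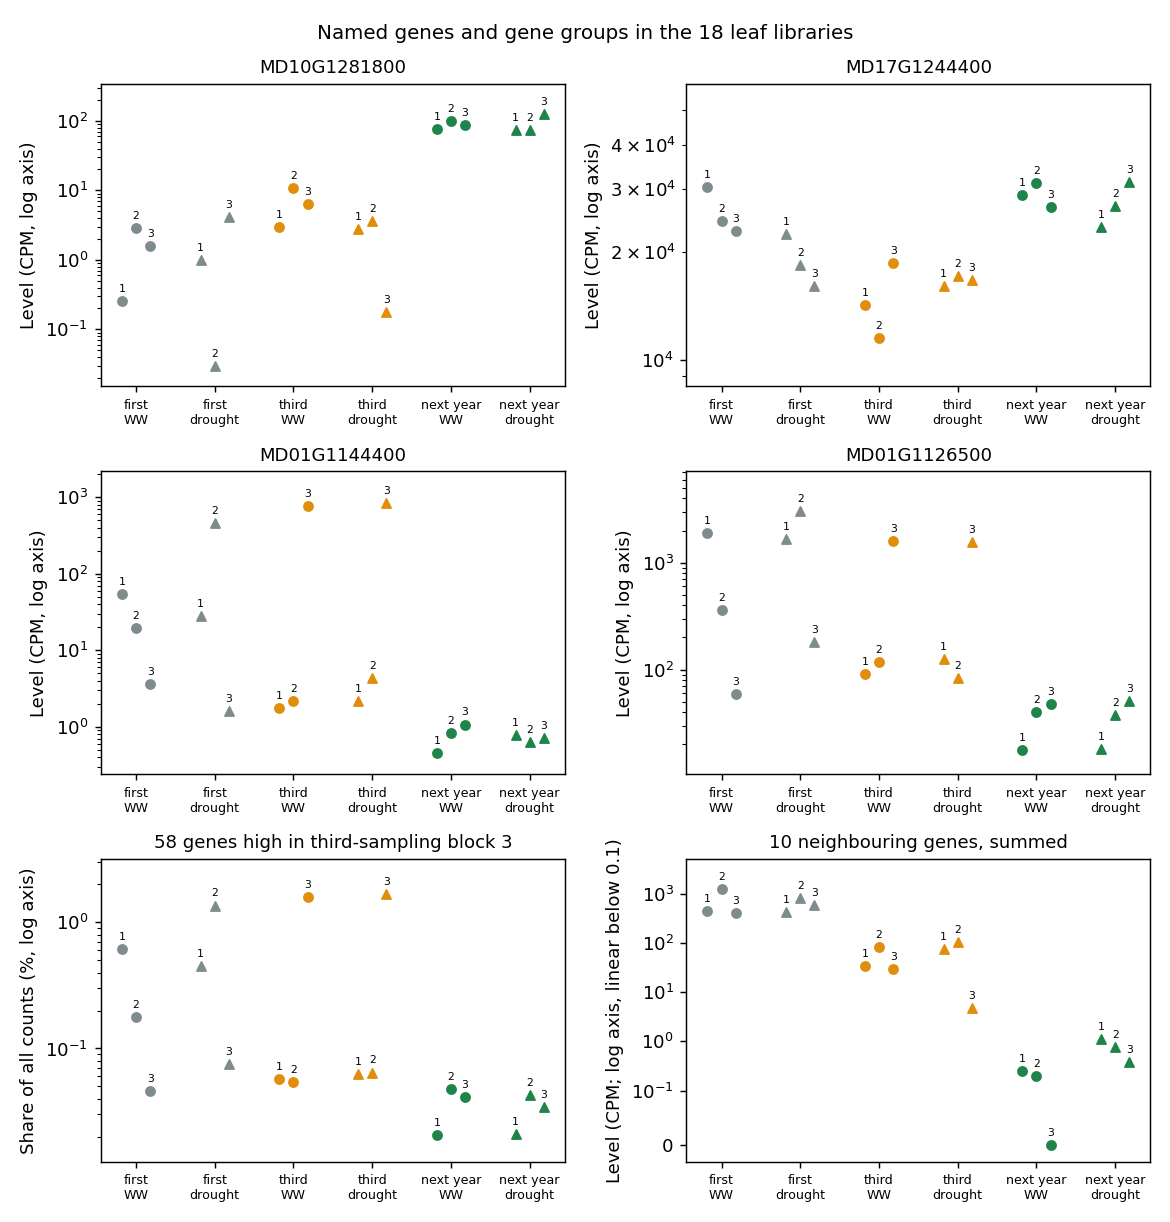
Levels in each of the 18 leaf libraries, on log axes: the 4 named genes in CPM, the share of counts held by the set of 58 genes, and the summed CPM of 10 neighbouring genes (linear below 0.1, to show the library at 0). Circles are well-watered (WW) and triangles drought libraries, and digits are sowing blocks; third-sampling block 3 stands high for both MD01 genes and the set of 58, and the 10 neighbours step down at each sampling.

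Large falls also lay side by side in the genome's gene order. Runs of at least 5 tested genes with consecutive identifiers, all called and at least 2-fold lower, numbered 7 and held 52 genes, while no such run of rises was found. More genes could form runs of falls, with 3366 (10.6% of those tested) at least 2-fold lower against 1157 (3.64%) higher. Whether falls cluster beyond their greater number was not tested. Runs of this kind often hold copies of a gene, whose reads an estimate of counts can divide wrongly, so the sum over a run is firmer than its single members.

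The most marked run held 10 genes of chromosome 10, with changes of -7.63 to -5.75 and a median of -6.84 on the log2 scale. Summed over the run, the third-sampling level was 33.4, 83.8 and 29.9 CPM in well-watered and 75.0, 106 and 4.83 CPM in drought blocks 1, 2 and 3. In the next year it was 0.247, 0.199 and 0 CPM and 1.14, 0.773 and 0.389 CPM. The run was thus at or below 1.14 CPM in every leaf library after winter.

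In libraries that did not choose this run, it was higher. In leaves of the first sampling the sum was 442, 1240 and 401 CPM in well-watered and 425, 808 and 586 CPM in drought blocks 1, 2 and 3, above every third-sampling library. In roots it was 391 to 6900 CPM at the first sampling and 945 to 2180 CPM at the third. Next-year roots held 1630 and 198 CPM in well-watered and 759 and 943 CPM in drought plants. The leaf sums thus stepped down from sampling to sampling without overlap, while the next-year roots still held the transcripts.

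A run of 9 genes of chromosome 13 was also higher in roots. Its sum in leaves was 233 to 1370 CPM at the third sampling and 154 to 470 CPM in the next year, so the sums overlapped, and in roots 3660 to 11500 CPM. A run of 9 other genes of chromosome 10 fell from 37.6 to 84.0 CPM at the third sampling to 6.41 to 15.8 CPM in the next year. A run of 8 genes of chromosome 11 was at 129 to 1340 CPM and then at 22.2 to 65.7 CPM, and the highest value was in the well-watered library of block 2, since 6 of its genes belong to the set of 44. The other runs, of 6 and 5 genes of chromosome 5 and 5 genes of chromosome 8, had summed third-sampling levels of at most 43.3 CPM.

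Few called genes were at 0 throughout a sampling. Of the genes that rose, 9 had no count in the 6 third-sampling libraries. Against a floor of 3 counts over that group, they were at least 33-fold to at least 588-fold higher in the next year. Of the genes that fell, 28 had no count in the 6 next-year libraries, and on the same floor were at least 21.2-fold to at least 1420-fold lower. Without the well-watered third-sampling library of block 2, the bounds were 11.2 to 505 for 10 genes that rose and 14 to 2700 for 35 that fell. Floors cover counting error alone.

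The genes that rose leaned towards ones that leaves express above roots. Levels were compared between leaf and root at the first sampling in well-watered plants, whose libraries are independent of the comparison. Over all tested genes the median leaf level was -0.02 log2 units from that of roots. It was 0.84 above for the genes that rose and 2.41 above for those that rose at least 2-fold. Of the latter, 55.6% were at least 4-fold higher in leaf than in root, against 14.6% of all tested genes. The genes that fell at least 2-fold leaned the other way, with a median of -0.58 and 19.2% at least 4-fold higher in root against 7.05% of all. These are descriptions without a test. The genes were not matched for level, and rises were more frequent among genes abundant in leaves and falls among scarce ones. Whether level alone gives this lean was not tested.

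Roots of the same samplings gave far fewer calls. In 10 root libraries, 6 of the third sampling and 4 of the next year, 434 of 32864 tested genes (1.32%) were called, 265 up (0.806%) and 169 down (0.514%). With the sowing block as a term the count was 3028, and DESeq2 called 2483. Leaving out any one of the 10 libraries gave 38 to 251, so the size of the root list is uncertain. Of the 434, 242 were called in the same direction in leaves (128 up, 114 down), which is 55.8% of the root list and 1.93% of the leaf calls tested in root. Of the root genes that rose, 48.3% also rose in leaves, beside 17.7% of all genes tested in root, and of those that fell, 67.5% also fell in leaves, beside 20.4%. Another 12 were called in opposite directions, and 180 were not called in leaves. The median root change was 0.17 on the log2 scale for genes that rose in leaves and -0.15 for genes that fell, beside -0.01 over all genes tested in root. Whether leaf and root differ in change was not tested, and the next-year roots hold 2 libraries a regime against 3 in leaves.

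Taken over both directions together, the genes called for a first drought were called over winter about as often as genes in general. At the first sampling, 3812 of 32307 genes (11.8%) differed between drought and well-watered leaves, 1657 (5.13%) higher and 2155 (6.67%) lower in drought, by edgeR's quasi-likelihood test. That fit holds all 18 leaf libraries, so its estimate of the spread also uses those of the winter comparison. Of the 3812, 1675 were also called over winter, or 43.9%, beside 42.2% of all genes tested over winter; they are 12.5% of the winter calls. Among the genes lower in the first drought, 27.1% rose and 21.2% fell into the next year, and among those higher in it 19.1% rose and 19.2% fell, beside 20.0% and 22.2% of all. The first-drought count was 1461, 2201 and 1670 without well-watered block 1, drought block 1 and drought block 2. The first-sampling libraries alone gave 1182, and DESeq2 gave 5843.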

How the data were processed

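The authors deposited a table of whole-number estimated counts for 52311 gene identifiers; FastQC, Salmon, DESeq and DESeq2 are named in the submitters' processing notes with no version. Salmon divides reads among similar transcripts, so near-identical copies are uncertain. For genome build and settings, the sources used here give nothing. Libraries came from a stranded mRNA kit, read as pairs of 100 bases, per the labels. No identifier (0) matched RefSeq's genes for assembly GDT2T_hap1, so gene lists could not be run, no sequence is printed and at most 2 identifiers per direction are named.

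Genes were filtered with filterByExpr (minimum count 10), scaled by TMM and tested with edgeR 4.0.16 (robust glmQLFit, glmQLFTest, R 4.3.3) with Benjamini-Hochberg adjustment; DESeq2 1.42.0 was an alternative. The pooled fit held regime and sampling, and a fit of the 4 group means gave the changes within regimes. Log2 CPM used a prior count of 2. The steps were tested on simulated data. Named genes needed adjusted p under 0.05 with and without the well-watered third-sampling library of block 2, a mean of at least 1 log2 CPM and samplings that did not overlap. The test by block, the sets of 58 and 44, the runs and the levels in roots were added after seeing the data. Members, lists and tests were chosen with earlier results of these data known.

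Replicate numbers mark the sowing block per the labels, so they pair libraries; deviations of well-watered and drought libraries of a block correlated at 0.22 to 0.64 at the third sampling and 0.17 to 0.40 in the next year, and those of the third sampling and the next year, in a regime and block, at -0.045 to 0.24. No 2 leaf libraries agreed within sampling noise (lowest chi-square per gene 13.3 over 66 pairs).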

Additional observations from a re-analysis of the deposited data

Results flagged for a closer look

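The well-watered third-sampling library of block 2 lay far from the other 5 third-sampling leaf libraries in its make-up. Its 100 most abundant genes held 39.12% of counts, with the nearest other library at 21.44%. The genes that fell into the next year held 33.35% of its counts against 21.04% in the nearest, and those that fell at least 2-fold held 24.62% against 8.61%. These measures overlap in genes, and the gap between the highest value and the next was tested in 22 groups of 6, where chance flags about 1 in 20. The cause was not tested.

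The change into the next year differed between sowing blocks for 2553 genes by a test of that difference, with block 3 the farthest for 2201. That test takes the well-watered and drought libraries of a block as replicates of one another.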

How the results depend on the processing

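The pooled count stayed within 1.5 times its size under all 24 alternatives, from 11427 to 14699; leaving out 1 library gave 11427 to 13264. Total-count scaling moved its split to 2644 up and 10497 down. With the replicate block, pooled calls were 14699, those within well-watered plants 8302 and within drought-cycled plants 6536, the first-drought count was 3969, and regime and its interaction kept 0; only the root count moved by over 1.5 times, to 3028. DESeq2 gave 7240 calls in drought-cycled plants, 2483 in root, 5843 for the first drought and 4022 between blocks. Leaving out 1 library gave 2881 to 8227 calls in well-watered and 1402 to 6286 in drought-cycled plants, 0 to 1 for the interaction, 38 to 251 in root, 843 to 4030 between blocks, a difference of -1571 to -1355 genes at 1 CPM and of 1.98 to 6.11 percentage points in the share of the top 100 genes, and 1461 to 4487 for the first drought. Without all of block 3, drought-cycled plants gave 1724; without its third-sampling libraries, the interaction gave 1. The first-sampling libraries alone gave 1182 first-drought calls. The causes were not tested, beyond fewer libraries where some were left out. Leaving out block 3, its third-sampling libraries or block 2's well-watered one with them, total-count scaling, the test between blocks and leaving out libraries from the genes at 1 CPM and the top 100 share were chosen after seeing the data. DESeq2 gave no adjusted p for MD01G1144400 and MD01G1126500.

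With 3 libraries a group, small differences between regimes would escape the test. Scarce genes carry few counts, and no gene can be read by function here.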

Other observations

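Calls over winter came from every chromosome in similar shares. Over the 18 identifier prefixes, which stand for the chromosomes and the unplaced genes, 17.5% to 24% of tested genes rose and 19.3% to 24.6% fell.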
